A study of Mus musculus with 12 samples.

Results

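The oligoadenylate synthetase (OAS) family was followed in an engineered mouse colon carcinoma line through its 8 listed genes: Oas1a, Oas1b, Oas1c, Oas1g, Oas2, Oas3, Oasl1 and Oasl2. They were picked by symbol from the 27179 genes of the count table. The table holds 12 genes with an OAS symbol, and the other 4 had next to no reads: Oas1d and Oas1e had 1 read each over all 12 libraries, and Oas1f and Oas1h had 0. Membership therefore follows detection, and the family was chosen with results of these libraries known, so every test given here describes these libraries and is not independent evidence.

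Oligoadenylate synthetases are interferon-induced enzymes that bind double-stranded RNA and then link ATP into short chains known as 2-5A. The chains act as a second messenger of the antiviral state. Interferons act on the family through STAT and IRF proteins, which bind the interferon-stimulated response element (ISRE) and the gamma-activated site (GAS) in gene promoters. The mouse has an expanded set of Oas1 genes, single Oas2 and Oas3 genes whose proteins carry several synthetase units, and the OAS-like genes Oasl1 and Oasl2, whose proteins carry ubiquitin-like repeats.

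All cells were MC38-idAdpgkG, a derivative of the C57BL/6 colon carcinoma line MC38. It carries the Adpgk(R304M) neoantigen fused to turboGFP on a construct that doxycycline switches on and that the degrader dTAG-13 targets for removal. Every group, controls included, was kept in mouse interferon-gamma at 20 ng/mL for 51 h. Control cells had interferon-gamma only. The doxycycline group also had 1 µg/mL doxycycline for the 51 h, the dTAG-13 group had 1 µM dTAG-13 for the last 3 h after 48 h of interferon-gamma, and the doxycycline plus dTAG-13 group had both on the same schedule. Each group is 1 culture sequenced as 3 technical libraries, so SDs, SEs and p-values measure the spread between libraries of that culture and not between cultures. The study has no group without interferon-gamma, so induction of the family by interferon-gamma itself cannot be read from it.

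Depth ranged from 22165538 to 32809573 reads per library, with the lowest total in a library of the doxycycline plus dTAG-13 group. Epithelial markers were close to absent: none of 7 reached 1 CPM (reads per 1000000 reads of the library, after TMM scaling), their summed level was at most 0.68 CPM, and Epcam and Cdx2 had 0 reads in all 12 libraries. Of 3 mesenchymal markers, Vim averaged 1257 CPM, Pdgfrb 6.50 CPM and Col1a1 0.0694 CPM (0 to 6 reads). With doxycycline Vim was lower and Pdgfrb higher, by -0.21 and 0.68 on the log2 scale against control and by -0.22 and 0.68 among dTAG-13 treated cells. Vim was also lower with dTAG-13, at -0.32 against control and -0.33 against doxycycline. The endothelial marker Pecam1 averaged 2.94 CPM and was called lower with doxycycline plus dTAG-13, at -0.39 against doxycycline (adjusted p = 0.0492) and -0.56 against dTAG-13 (adjusted p = 0.015), whereas Cdh5 was at 2 to 14 reads and was not called. The part of these differences in the results was not tested. The 4 leukocyte markers summed to at most 0.0647 CPM, with Cd3e at 0 throughout.

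The 8 genes lie on chromosome 5 (GRCm38.p6). Oasl2 (114896926-114912245, + strand) is followed by Oasl1 (114923143-114937911, + strand). The other 6 form a second cluster in the order Oas2 (120730333-120749886, - strand), Oas3 (120753098-120777684, - strand), Oas1c (120800194-120812540, - strand), Oas1b (120812635-120824163, + strand), Oas1g (120876142-120887613, - strand) and Oas1a (120896256-120907544, - strand). RefSeq lists Oas1b as a transcribed pseudogene and GENCODE as a polymorphic pseudogene. Oas1b is the flavivirus resistance gene, whose C57BL/6 allele encodes a truncated protein.

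Promoter windows from RefSeq, 250 bases before to 50 after the annotated start, were on hand for 6 of the 8 genes (not Oas1b or Oas2). The bases upstream of the start are printed 5′ to 3′ on the gene's strand for the 4 genes with an ISRE core and for Oasl2, the most abundant gene of the family, which has none. Capitals mark matches to GAAANNGAAA (the ISRE core) or TTCNNNGAA (GAS), searched on both strands, and positions count back from -1, the last base before the start.
Oas1a: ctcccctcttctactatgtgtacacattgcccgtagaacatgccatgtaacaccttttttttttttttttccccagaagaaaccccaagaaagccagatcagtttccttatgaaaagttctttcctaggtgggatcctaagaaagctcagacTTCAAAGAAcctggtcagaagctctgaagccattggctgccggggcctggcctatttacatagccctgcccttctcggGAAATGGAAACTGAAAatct
Oas1g: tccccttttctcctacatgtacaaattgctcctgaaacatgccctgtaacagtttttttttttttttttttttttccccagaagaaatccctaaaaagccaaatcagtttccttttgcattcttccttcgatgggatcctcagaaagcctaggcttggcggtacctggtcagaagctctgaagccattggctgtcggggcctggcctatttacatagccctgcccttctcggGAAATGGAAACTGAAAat
Oas3: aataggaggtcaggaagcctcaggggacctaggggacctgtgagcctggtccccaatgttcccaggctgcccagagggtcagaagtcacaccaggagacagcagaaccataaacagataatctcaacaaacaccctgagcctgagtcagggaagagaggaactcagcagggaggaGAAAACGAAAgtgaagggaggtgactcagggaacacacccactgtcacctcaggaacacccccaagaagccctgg
Oas1c: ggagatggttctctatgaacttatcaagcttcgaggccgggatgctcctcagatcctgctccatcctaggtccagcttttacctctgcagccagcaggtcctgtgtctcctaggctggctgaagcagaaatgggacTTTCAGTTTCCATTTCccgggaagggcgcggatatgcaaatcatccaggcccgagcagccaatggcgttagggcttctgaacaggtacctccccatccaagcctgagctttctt
Oasl2: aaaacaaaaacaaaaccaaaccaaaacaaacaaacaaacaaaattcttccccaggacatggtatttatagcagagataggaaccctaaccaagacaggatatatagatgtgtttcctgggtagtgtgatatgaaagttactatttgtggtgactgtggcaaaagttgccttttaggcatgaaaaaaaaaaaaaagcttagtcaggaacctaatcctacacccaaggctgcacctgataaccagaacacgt
These windows are chr5:120907526-120907775 for Oas1a, chr5:120887614-120887863 for Oas1g, chr5:120777660-120777909 for Oas3 and chr5:120812515-120812764 for Oas1c, all on the - strand, and chr5:114896684-114896933 for Oasl2 on the + strand. For all but Oas1g, the start used here lies inside the gene range given above. The last printed bases therefore fall within that range, and so do nearly all bases of the Oas1a cores.

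An ISRE core was found in 4 of the 6 windows, and 1131 of all 32851 RefSeq windows (3.44%) held one. Oas1a had 2 overlapping cores starting at -20 and -14, and Oas1g had the same overlapping pair at -18 and -12. In Oas3 a single core started at -75. The Oas1c window held 2 overlapping cores at -114 and -108, on the opposite strand. That window reaches past the start of Oas1b at 120812635, and the cores lie between the 2 genes, on the strand of Oas1b. Read on that strand, they have the same bases as the pairs of Oas1a and Oas1g. Which gene they serve was not tested. A GAS was found in Oas1a alone, at -98, against 2726 windows (8.3%) in all, and it overlaps no core. Oasl1 and Oasl2 held neither sequence within their windows. The upstream sequences of Oas1a and Oas1g were identical at 212 of 244 aligned bases (86.9%), against 54.7% to 65.7% for the other pairs of members.

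Likeness between the Oas1 genes extends to their transcripts and bears on their counts. Of the 50-base stretches of Oas1a transcripts, 57.57% also occur in Oas1b or Oas1g, and of those of Oas1g, 54.72% occur in Oas1a or Oas1b. Oas1c shares 16.28%, in part with the antisense gene Gm43069, which covers 9.4% of its exons, so reads of the pair cannot be told apart without strand information. Oas1b shares 3.41% and Oas3 0.79%, while Oas2, Oasl1 and Oasl2 share none. Values of Oas1a, Oas1g and Oas1c are uncertain to that extent.

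Oasl2 made up most of the family's reads in every group. Per kb of longest transcript, its control level was 15.0 ± 0.849 CPM per kb (SD, n = 3), far above Oas1a at 2.57 ± 0.326 and Oas3 at 2.52 ± 0.116, which did not differ beyond their spread. Next came Oas1c at 1.11 ± 0.0426, Oas1g at 0.970 ± 0.182 and Oas1b at 0.918 ± 0.226 CPM per kb, a trio that overlapped in level. Oasl1 (0.457 ± 0.0406) and Oas2 (0.219 ± 0.00764) closed the order, each separate from its neighbours. With doxycycline, Oas3 stood at 5.13 ± 0.25 CPM per kb, above Oas1a at 3.14 ± 0.419, and Oas2 at 0.720 ± 0.053 was level with Oasl1 at 0.655 ± 0.105. Scaling by all annotated exon sequence instead of the longest transcript would place control Oas3 at 1.68 CPM per kb, below Oas1a at 2.57, so the order of that pair depends on the length used.

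**Figure D1:**
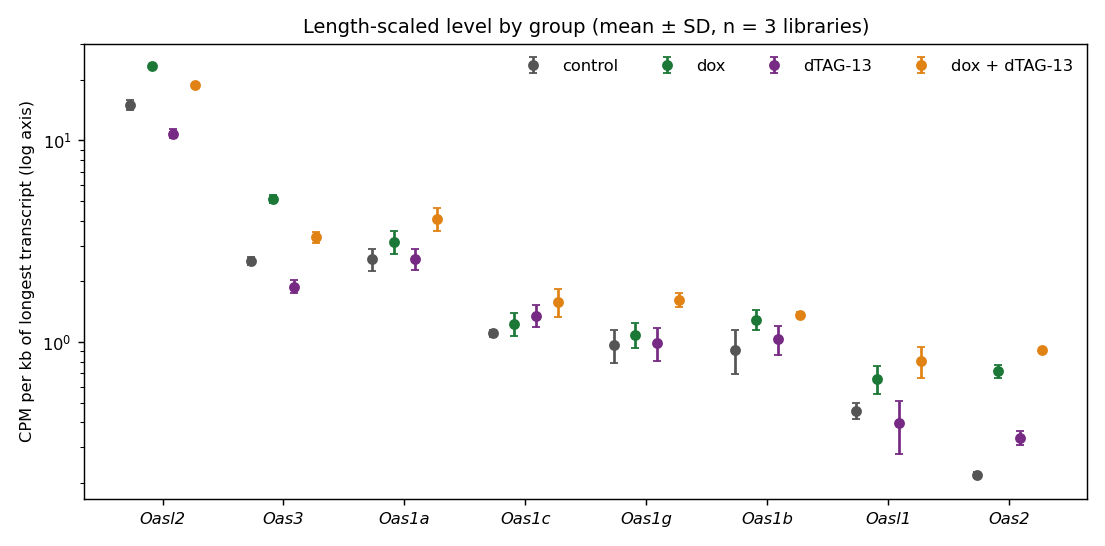
Level of each family gene as CPM per kb of longest transcript on a log axis, with the mean and SD of 3 libraries for each of the 4 groups. Oasl2 is highest in every group, at 15.0 CPM per kb in control cells, and Oas2 is lowest there, at 0.219.

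Summed over the 8 genes, the family was at 71.5 ± 2.57 CPM in control cells, 114.9 ± 0.339 with doxycycline, 97.1 ± 1.34 with doxycycline plus dTAG-13 and 56.7 ± 2.2 with dTAG-13 (SD, n = 3). Oasl2 supplied 65.4% ± 1.77 of the family's reads in control cells and 59.6% ± 0.884 with dTAG-13. The share of Oas3 was 16.6% ± 1.38 in control cells and 21.1% ± 1.08 with doxycycline, and that of Oas2 went from 1.21% ± 0.085 in control cells to 3.74% ± 0.0634 with doxycycline plus dTAG-13.

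**Figure D2:**
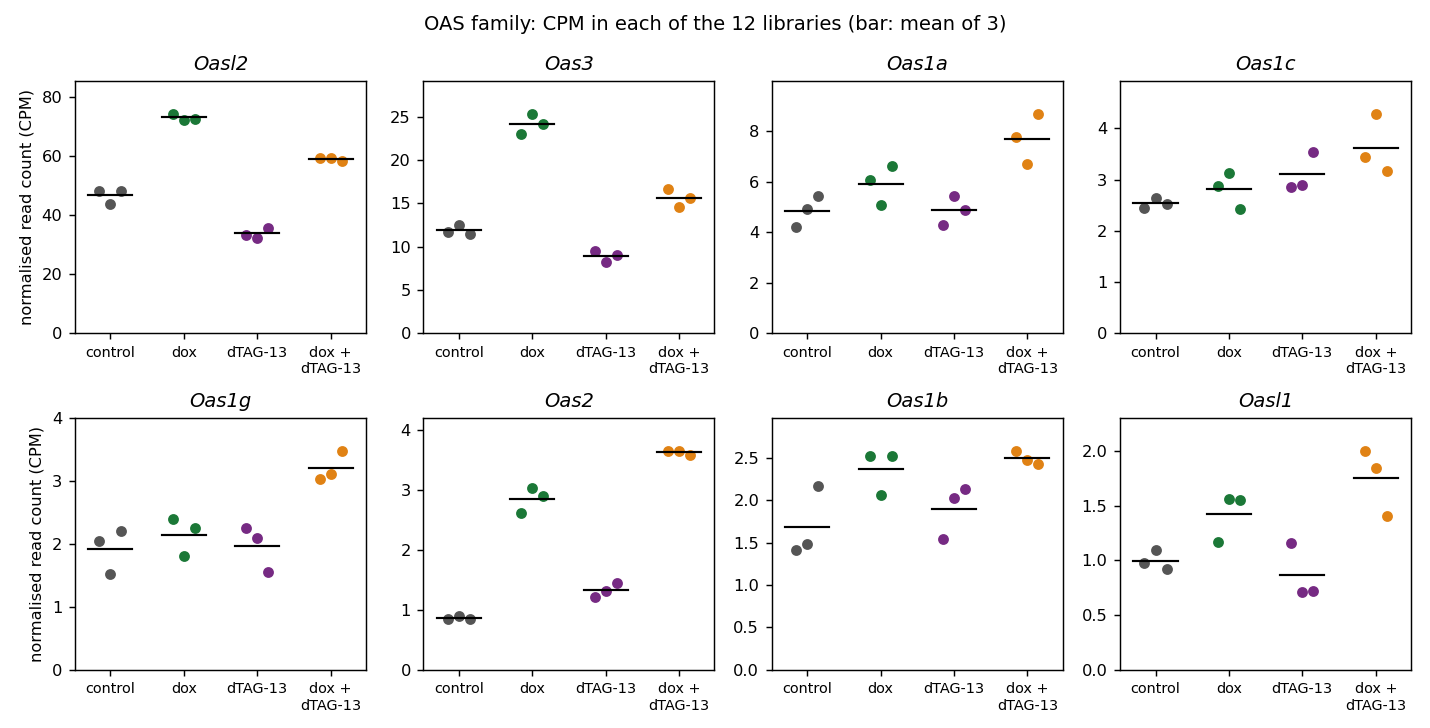
Normalised read count (CPM) of the 8 OAS genes in each of the 12 libraries, with a bar at each group's mean. The 3 doxycycline libraries of Oas2, Oas3 and Oasl2 lie above all control libraries, whereas those of Oas1c and Oas1g overlap them.

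Doxycycline against control asks how the family differs after 51 h of doxycycline, which switches the transgene on. All cells carry the construct, so effects of doxycycline itself and of the transgene cannot be told apart in any comparison. Oas2, Oas3, Oasl2 and Oas1b were higher with doxycycline, by 3.28-fold, 2.03-fold, 1.56-fold and 1.42-fold, and none was lower. That is 4 of 8 genes at an adjusted p under 0.05 (edgeR quasi-likelihood test, Benjamini-Hochberg over 12910 tested genes), where 33.5% of all tested genes were called and 14.8% were called higher. The median log2 fold change of the 8 was 0.51, against -0.01 over all tested genes. In bulk RNA, fewer cells making a transcript and less of it per cell cannot be told apart.

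Oas2 encodes the synthetase of intermediate size. Its control libraries held 0.847, 0.902 and 0.852 CPM, which is 27, 28 and 24 reads. With doxycycline it was at 2.62, 3.03 and 2.90 CPM (81, 91 and 84 reads). The groups lie far apart, and the log2 fold change was 1.71 (SE 0.192; adjusted p = 2.36e-09), the largest of the family in this comparison.

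Oas3, the largest synthetase, was at 11.7, 12.5 and 11.4 CPM in control libraries and at 23.0, 25.4 and 24.2 CPM with doxycycline. Every doxycycline library was above every control library, with a log2 difference of 1.02 with an SE of 0.0696 (adjusted p = 2.02e-15).

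Oasl2 was at 48.4, 43.7 and 48.3 CPM in control libraries and at 74.4, 72.4 and 72.6 CPM with doxycycline. The groups did not overlap, and the log2 difference of 0.65 with an SE of 0.0417 (adjusted p = 4.37e-16) was the most precisely measured of the 8. Its relative Oasl1, which represses translation of Irf7, was at 0.973, 1.09 and 0.923 CPM against 1.17, 1.57 and 1.55 CPM. Those libraries did not overlap either, but the log2 fold change of 0.51 ± 0.245 (SE) did not pass the test (adjusted p = 0.105).

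The Oas1 genes had smaller fold changes than Oas2, Oas3 and Oasl2. Oas1b was at 1.41, 1.48 and 2.16 CPM in control libraries and at 2.53, 2.07 and 2.52 CPM with doxycycline. Control library 3 overlaps the doxycycline group, and the log2 fold change was 0.50 ± 0.191 (SE, adjusted p = 0.0391). That call was lost in DESeq2 (adjusted p = 0.0991) and without control library 1 or 2 or doxycycline library 1 or 3 (log2 fold change from 0.38 over these refits). Oas1a, a catalytically active OAS1 enzyme, was at 4.2, 4.89 and 5.43 CPM against 6.05, 5.07 and 6.63 CPM, a log2 fold change of 0.29 ± 0.125 (SE) with adjusted p = 0.0686. Its groups overlap. For Oas1g the log2 fold change was 0.17 (95% interval -0.21 to 0.55, adjusted p = 0.539), and for Oas1c 0.15 (-0.18 to 0.48, adjusted p = 0.517). The upper limits of these intervals are 1.46-fold and 1.39-fold, so the genes are not shown to be unaffected.

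Oas1a and Oas1g share much of their sequence, and Oas1b little (3.41% with any other gene). The reads of Oas1a, Oas1b and Oas1g were also summed, an alternative chosen after seeing the data. The sum was 8.45 ± 1.17 CPM in control cells and 10.4 ± 1.31 CPM with doxycycline (SD, n = 3), and its log2 difference of 0.31 with an SE of 0.101 (adjusted p = 0.0156) passed the test that Oas1a alone had missed. It includes Oas1b, which was called on its own, so it does not settle the reads shared by Oas1a and Oas1g.

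Doxycycline plus dTAG-13 against dTAG-13 compares cells with and without doxycycline when both had the degrader for 3 h, and it shares no library with the comparison above. Here 6 of 8 genes were called, all higher, where 20.4% of tested genes were called and 10.7% were called higher. The median log2 fold change was 0.76, against -0.00077 over all tested genes. Oas2 was at 3.66, 3.65 and 3.57 CPM with both compounds and at 1.22, 1.32 and 1.45 CPM with dTAG-13, a 2.73-fold difference (log2 fold change 1.45 ± 0.174, SE, adjusted p = 1.97e-08). The groups are well apart.

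Oasl1 was at 2.01, 1.85 and 1.40 CPM against 1.16, 0.708 and 0.723 CPM, 1.99-fold higher (adjusted p = 0.00289), on 21 to 47 reads per library. Oas3 was at 16.7, 14.6 and 15.7 CPM against 9.48, 8.17 and 9.06 CPM, 1.76-fold higher (adjusted p = 7.65e-11). Oasl2 was at 59.4, 59.3 and 58.4 CPM against 33.4, 32.3 and 35.8 CPM, 1.75-fold higher (adjusted p = 6.92e-18). In each of these genes all libraries with doxycycline lie above all without it.

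Among the Oas1 genes, Oas1a was at 7.76, 6.68 and 8.68 CPM with both compounds and at 4.27, 5.44 and 4.89 CPM with dTAG-13, 1.59-fold higher (adjusted p = 6.28e-05). Oas1g, the other active OAS1 enzyme in the list, was at 3.03, 3.1 and 3.48 CPM against 2.25, 2.09 and 1.55 CPM, 1.63-fold higher (adjusted p = 0.00315). Neither pair of groups overlapped. Oas1b was at 2.59, 2.48 and 2.43 CPM against 1.54, 2.03 and 2.14 CPM, with a log2 difference of 0.39 with an SE of 0.189 (adjusted p = 0.146), and Oas1c had 0.22 ± 0.153 (adjusted p = 0.34). All 6 calls were kept in each of the 21 refits with other settings or with 1 library left out.

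**Figure D3:**
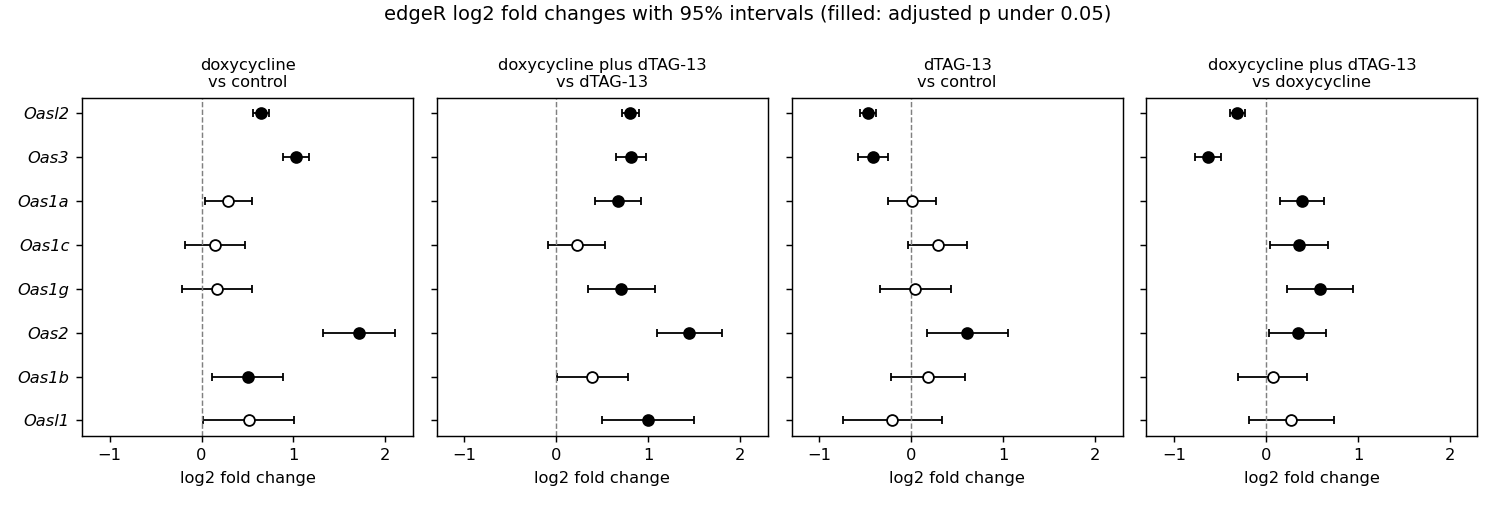
Log2 fold change of each OAS gene in the 4 pairwise comparisons, with 95% intervals, filled where the adjusted p is under 0.05. In both doxycycline comparisons all 8 estimates are above 0, whereas in both dTAG-13 comparisons Oas3 and Oasl2 lie below 0 and Oas2 above it.

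dTAG-13 against control asks how the family differs after 3 h of the degrader with the transgene off. Oasl2 and Oas3 were lower, by 1.38-fold and 1.34-fold, and Oas2 was 1.53-fold higher. So 3 of 8 genes were called, where 62.1% of tested genes were called, 30.0% higher and 32.1% lower. The members' count is below that share, but low counts limit calls of Oas1b, Oas1c, Oas1g, Oas2 and Oasl1 (at most 112 reads in a library). The median log2 fold change of the 8 was 0.03, against 0.02 over all tested genes. This comparison shares its control libraries with doxycycline against control and its dTAG-13 libraries with the comparison above.

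Oasl2 was at 33.4, 32.3 and 35.8 CPM with dTAG-13 and at 48.4, 43.7 and 48.3 CPM in control libraries, a log2 difference of -0.47 with an SE of 0.0453 (adjusted p = 6.46e-12). Oas3 was at 9.48, 8.17 and 9.06 CPM against 11.7, 12.5 and 11.4 CPM, a log2 difference of -0.42 with an SE of 0.0798 (adjusted p = 1.72e-05). Groups of both genes were separate. Oas2 was at 1.22, 1.32 and 1.45 CPM against 0.847, 0.902 and 0.852 CPM, also without overlap, with a log2 difference of 0.61 with an SE of 0.219 (adjusted p = 0.0149). Without dTAG-13 library 3 it was 0.54 and was no longer called (adjusted p = 0.0553).

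The other 5 genes did not pass. Oas1a (log2 fold change 0.01, 95% interval -0.25 to 0.27) and Oas1g (0.04, -0.34 to 0.43) were nearest to 0, and Oasl1 was at -0.21 (-0.75 to 0.33). Oas1c was at 2.86, 2.90 and 3.55 CPM with dTAG-13 against 2.45, 2.64 and 2.52 CPM, groups that do not overlap, yet its log2 fold change of 0.29 ± 0.158 (SE) had an adjusted p of 0.114. It was called when libraries were scaled by total reads only.

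Doxycycline plus dTAG-13 against doxycycline compares cells with and without the degrader, with the transgene on. Taken alone, it does not separate the compound's own effect from removal of the fusion protein. Oas3 and Oasl2 were again lower, by 1.55-fold and 1.24-fold, while Oas1g, Oas1a, Oas1c and Oas2 were higher, by 1.5-fold, 1.31-fold, 1.28-fold and 1.27-fold. These are 6 of 8 genes, where 64.1% of tested genes were called, 30.7% higher and 33.4% lower, so the count is close to the background. The median log2 fold change was 0.31, against 0.00 over all tested genes. The doxycycline plus dTAG-13 and the doxycycline libraries each serve in another comparison above.

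Oas3 was at 16.7, 14.6 and 15.7 CPM with both compounds and at 23.0, 25.4 and 24.2 CPM with doxycycline, a log2 difference of -0.63 with an SE of 0.0684 (adjusted p = 1.26e-10). Oasl2 was at 59.4, 59.3 and 58.4 CPM against 74.4, 72.4 and 72.6 CPM, a log2 difference of -0.31 with an SE of 0.0414 (adjusted p = 1.76e-08). For both genes the libraries with both compounds sit below all those with doxycycline alone, and above all control libraries.

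Oas1g was at 3.03, 3.1 and 3.48 CPM with both compounds against 2.40, 1.80 and 2.24 CPM with doxycycline, a log2 difference of 0.58 with an SE of 0.177 (adjusted p = 0.00392). Oas1a was at 7.76, 6.68 and 8.68 CPM against 6.05, 5.07 and 6.63 CPM, a narrow gap, with a log2 difference of 0.39 with an SE of 0.119 (adjusted p = 0.00432). It was not called without doxycycline library 2 (0.27) or without doxycycline plus dTAG-13 library 3 (0.28). The summed reads of Oas1a, Oas1b and Oas1g rose by 1.29-fold (adjusted p = 0.00111).

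Oas1c was at 3.43, 4.28 and 3.16 CPM against 2.88, 3.13 and 2.42 CPM (log2 fold change 0.36 ± 0.156, SE, adjusted p = 0.0424), and Oas2 at 3.66, 3.65 and 3.57 CPM against 2.62, 3.03 and 2.90 CPM (0.35 ± 0.154, SE, adjusted p = 0.047). In neither gene do the groups overlap, but both calls rest near the threshold. That of Oas1c was lost in 4 other settings and without any of 7 libraries (control 2, doxycycline 1 or 3, dTAG-13 alone 1 or 2, or doxycycline plus dTAG-13 library 1 or 2), where its lowest log2 fold change was 0.22. That of Oas2 was lost in 3 other settings and in 9 of the 12 refits without 1 library, all but those without control library 1 or 3 or dTAG-13 library 3, with values down to 0.27. Oasl1 (0.28 ± 0.228, SE, adjusted p = 0.296) and Oas1b (0.07 ± 0.183, adjusted p = 0.753) did not pass.

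Fold changes with dTAG-13 moved when transcript length and base composition (GC content) were corrected for by a per-library offset fitted over all tested genes with an annotated length. Oas3, the longest transcript of the family at 4720 bases, went from -0.42 to -0.21 against control (adjusted p = 0.0266) and from -0.63 to -0.38 against doxycycline (adjusted p = 1.11e-05). Oasl2 barely moved, from -0.47 to -0.49 and from -0.31 to -0.30. Oas1a and Oas1c lost their calls against doxycycline, at 0.25 (adjusted p = 0.0819) and 0.27 (adjusted p = 0.139). Oas1g kept its call at 0.45 (adjusted p = 0.0285), and Oas2 rose to 0.45 (adjusted p = 0.0128). In the doxycycline comparisons no member moved by as much as 0.05.

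**Figure D4:**
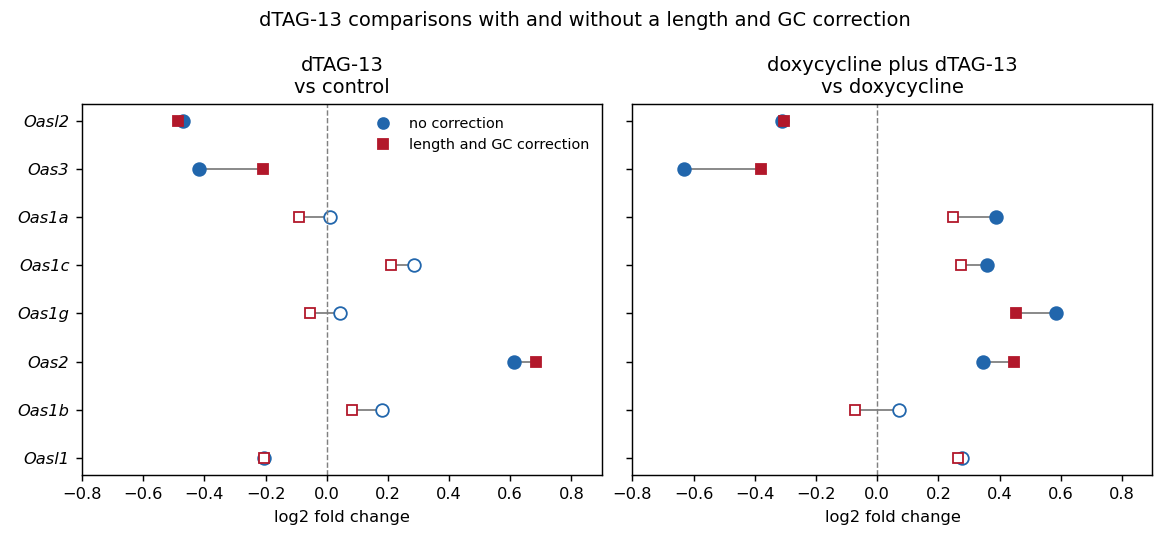
Log2 fold change of each OAS gene in the 2 dTAG-13 comparisons without (circles) and with (squares) the length and GC correction, filled where the adjusted p is under 0.05. Oas3 moves from -0.42 to -0.21 and from -0.63 to -0.38, whereas Oasl2 stays near -0.47 and -0.31.

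The interaction, the dTAG-13 effect with doxycycline minus that without it, tests whether the degrader acted differently on the 2 backgrounds. None of the 8 genes passed (edgeR, adjusted p), where 22.9% of tested genes were called. At an unadjusted p under 0.05 there were 3 (Oas1a, Oas1g and Oasl2), and DESeq2 called 0. Oasl2 came closest, at a log2 difference of 0.16 ± 0.0614 (SE, adjusted p = 0.0555, range over refits 0.0193 to 0.31), its fall with dTAG-13 being smaller under doxycycline. Oas1g was at 0.54 (95% interval 0.02 to 1.07, adjusted p = 0.134) and Oas1a at 0.38 (0.02 to 0.73, adjusted p = 0.12). Oas3 was at -0.21 (-0.43 to 0.00, adjusted p = 0.148). The calls on Oas1a and Oas1g in one dTAG-13 comparison and not in the other are therefore not shown to differ.

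From the handling of 2-5A, a list of 3 genes was followed, each with at least 457 reads in every library. Abce1, which recycles ribosomes and inhibits the 2-5A response, averaged 480.4 CPM over the 12 libraries. Pde12, a phosphodiesterase that degrades 2-5A, averaged 45.0 CPM, and Akap7, an anchoring protein with a phosphodiesterase-like domain, 21.7 CPM. Of the 3, Pde12 alone was called with doxycycline, where 33.5% of all tested genes were called. Its log2 fold change was -0.15 ± 0.0424 (SE, adjusted p = 0.00434), and the call was lost without doxycycline library 2 (adjusted p = 0.0622). With library size only or with the length and GC correction, 2 of the 3 were called there. With dTAG-13 against control, Abce1 was called higher, at 0.09, and Pde12 lower, at -0.13, which the length and GC correction took to -0.02 (adjusted p = 0.768). Of all tested genes, 62.1% were called in that comparison. In doxycycline plus dTAG-13 against doxycycline, 64.1% of all tested genes were called. Abce1 was called higher there, at 0.09 ± 0.0224 (SE, adjusted p = 0.000957). With the length and GC correction that value turned to -0.05 and was called lower (adjusted p = 0.0471). Between doxycycline plus dTAG-13 and dTAG-13, 0 genes of the list were called by edgeR, 0 had an unadjusted p under 0.05, and DESeq2 called 0. In edgeR, 20.4% of all tested genes were called there.

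Interferon receptors, kinases, STATs, IRFs and feedback genes were followed as a list of 16, of which 15 were tested (Irf8 had 0 to 2 reads). With doxycycline 9 were higher and 1 was lower, with a median log2 fold change of 0.17, where 33.5% of all tested genes were called and 14.8% called higher. The largest was Irf7, a transcription factor that drives interferon genes, at 0.95 ± 0.093 (SE, adjusted p = 9.84e-11). Stat2 and Irf9, which belong to the complex that binds the ISRE, were among those higher, by 0.55 and 0.18 (adjusted p = 3.92e-16 and 0.000166). Among dTAG-13 treated cells, 8 were higher with doxycycline and none lower (20.4% of all tested genes called, 10.7% higher), with a median of 0.11, led again by Irf7 at 1.01 ± 0.0914 (SE, adjusted p = 1.86e-11).

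The dTAG-13 comparisons split the same list, with counts not far from the share of all tested genes called, 62.1% against control and 64.1% against doxycycline. Against control 4 were higher and 7 lower (median -0.10; 9 calls in all with the length and GC correction), the largest being Socs3, a feedback inhibitor of cytokine receptors, at -0.42 (adjusted p = 5.33e-08). Against doxycycline 4 were higher and 6 lower (median -0.02; 7 calls with the correction), the largest being the receptor kinase Jak1 at -0.43 (adjusted p = 6.4e-19), which was -0.26 with the length and GC correction. The list gave 7 calls in the interaction, 1 higher and 6 lower, where 22.9% of all tested genes were called. It gave 4 with DESeq2, with the length and GC correction, without control library 1 and without dTAG-13 library 2.

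Other sensors and effectors of double-stranded RNA were a list of 8, all tested. With doxycycline 5 were higher and none lower (median 0.21; 14.8% of all tested genes higher), the largest being Dhx58, the LGP2 helicase, at 0.45 ± 0.12 (SE, adjusted p = 0.00304). Among dTAG-13 treated cells 6 were higher with doxycycline and none lower (10.7% of all tested genes higher), and Dhx58 was again the largest at 0.83 ± 0.124 (SE, adjusted p = 2.03e-06). With dTAG-13 against control 5 of the 8 were called, at the 62.1% of all tested genes, all of them lower (32.1% of all tested genes lower; median -0.21), the largest being Adar, the RNA-editing enzyme, at -0.50 (adjusted p = 3.67e-15) and at -0.22 with the length and GC correction. Against doxycycline 6 were lower and 1, Zbp1, was higher, where 33.4% of all tested genes were lower and 30.7% higher. With the length and GC correction 5 were called there. Ddx58, the RIG-I helicase, fell most against doxycycline, at -0.46 (adjusted p = 2.5e-16). In the interaction 2 were called, Zbp1 and Adar, both higher, where 22.9% of all tested genes were called. The list gave 3 with the length and GC correction, and 1 with DESeq2 and in most refits without 1 library.

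Interferon ligands were at the floor of detection. None of the 10 in the list passed the filter on low counts, 7 had 0 reads in all libraries, and their summed level was at most 0.0891 CPM. Ifnb1 had 0 to 2 reads per library, and Ifng had 0 in all.

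Across the 12 libraries, Oas3 and Oasl2 had the most similar profiles within the family (Pearson r of log2 CPM 0.964), followed by Oas1a and Oas1b (0.824). Oas1c showed almost no relation to Oas3 (-0.023) and Oasl2 (0.0392). These libraries form 4 groups of 3, so such values mostly restate the group means. Among 11549 other genes, the nearest profile was that of Igfbp4, an IGF-binding protein, for Oas2 (0.9945), of the co-receptor Nrp1 for Oas3 (0.988), of the nucleoside transporter Slc29a3 for Oasl2 (0.979) and of the transcription factor Twist2 for Oasl1 (0.936). For Oas1a it was Rab8b (0.929), for Oas1c 8030462N17Rik (0.919), for Oas1b Foxf1 (0.896) and for Oas1g an ID without a symbol (0.893). For the mean profile of the family, the 5 nearest genes were the nucleic acid sensor Zbp1 (0.993), the chemokine Cxcl10 (0.993), the mitochondrial nucleotide kinase Cmpk2 (0.982), the interferon-inducible Ifi205 (0.98) and the lipase inhibitor Angptl4 (0.980).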

How the data were processed

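Poly(A) RNA of 12 libraries was measured, 3 technical libraries for each of 4 treatments. The authors deposited raw read counts per Entrez gene ID, without normalization. Per the file headers, reads were aligned with Subread. Per the submitters' processing notes, bcl2fastq 2.17, featureCounts and mm10 were used. Not given in the sources used here: annotation, strand setting and multi-mapping reads.

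Symbols came from RefSeq (25275 IDs) and GENCODE M21 (18 IDs); 1886 IDs, holding 2.0974% of reads, had none. Genes passing filterByExpr (12910) were fitted over all 12 libraries, with TMM factors from 0.9647 to 1.035, in edgeR 4.0.16 (R 4.3.3; robust quasi-likelihood F test, two-sided, Benjamini-Hochberg, called under 0.05). All 8 members passed the filter. Levels are CPM on the TMM-scaled library size. The code was tested on simulated data.

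The members and lists were chosen with earlier results of these data known. Named were all members, the called gene of each pathway list with the largest absolute log2 fold change in each pairwise comparison, and the genes nearest in profile. Some list genes are not reported here, and the counts of their lists leave them out. Stat2, Irf9, Zbp1, the tissue markers and further genes of the 2-5A list were added after their values were seen. Alternatives were DESeq2 1.42.0, RLE or library-size scaling, other filters, only the groups compared, a replicate block, a length and GC offset (splines with 5 degrees of freedom), and leaving out each library.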

Additional observations from a re-analysis of the deposited data

How the results depend on the processing

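The 40 member values (8 genes, 5 comparisons) were refitted 836 times. In 790 refits the direction of a called value and the side of the threshold stayed, 33 lost a call, 13 gained one and 0 reversed a called value. The number of members called with doxycycline was 4 and ranged from 3 to 5, with dTAG-13 against control 3 and from 2 to 4, with doxycycline plus dTAG-13 against doxycycline 6 and from 4 to 6, and against dTAG-13 it was 6 throughout. The interaction, with 0 calls, gave 1 call with RLE scaling, library size only, a filter of 1 CPM in 3 libraries, and the length and GC correction without and with the replicate block, and 0 to 1 without 1 library. That call was Oasl2 (0.17, 0.16, 0.18 and 0.18, and 0.20 and 0.21 without control library 2 or dTAG-13 library 3), except with library size only, where it was Oas3 (-0.28). Without 1 library, the counts were 3 to 5, 2 to 3, 4 to 6 and 6 to 6 in the pairwise comparisons.

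Abce1 in doxycycline plus dTAG-13 against doxycycline turned from 0.09 to -0.05 with the length and GC correction, without and with the block (-0.048 and -0.04796). It was called lower without the block (edgeR adjusted p = 0.0471) but not with it (0.0586). Of 312 refits of the 15 list counts, 26 moved by over 1.5 times, 19 of them in the interaction. Oas1a with doxycycline was called with library size only (0.33), without a filter (0.30) and without control library 3 or doxycycline library 2. Same-numbered libraries did not deviate together (18 pairs, r from -0.02 to 0.08, against -0.06 to 0.07 for 36 other pairs). No pairing by number was seen in these values, which could miss a weak shared effect. With the replicate block, 4, 3, 5, 6 and 0 members were called, and the 1 changed call was Oas2 in doxycycline plus dTAG-13 against doxycycline (0.34, adjusted p = 0.0529). Counts limit Oas1b, Oas1c, Oas1g, Oas2 and Oasl1, with at most 112 reads in a library.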
